A study of Mus musculus with 2 samples.

Results

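Circular RNAs (circRNAs) that shared their host gene with at least 1 other exonic circRNA were examined in wild-type mouse crypts of the small intestine. A row of the deposited circRNA table was included when its type was exon and its whole gene name entry stood in 2 or more exon-type rows. This gave 419 circles from 173 hosts, out of 1132 listed circRNAs, of which 1054 were exonic and came from 808 hosts. The other 635 exonic circles were alone under their gene name entry. A host is such an entry in all counts, so some of the 635 share an annotated gene with another exonic circle. The series holds 1 group of 2 libraries (replicates 1 and 2) from wild-type small intestine, with no treatment and no second group. Strain, age and sex of the mice are not given in the labels, nor whether each library came from its own animal, so the spread between the libraries may be technical. The sample titles say crypt while the cell type entry says stem cells, and no sort is recorded.

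A circRNA forms when the spliceosome joins the 3′ end of an exon (the donor) backwards to the 5′ end of the same or an earlier exon (the acceptor), most often with long introns on both sides. One gene can give several circles when an acceptor is paired with different donors or a donor with different acceptors, a choice called alternative back-splicing. A read across the join, a back-splice read, identifies the 2 ends of a circle but not which exons between them were kept. Circles lack free ends and are therefore long-lived in many cells, and epithelia with fast turnover such as the intestine usually hold fewer of them than neurons.

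The 419 circles carried 1422 of 3332 exonic back-splice reads in replicate 1 (42.7%, interval 41.0 to 44.4%) and 1820 of 4284 in replicate 2 (42.5%, 41.0 to 44.0%). All rows of the table together held 3546 and 4441 reads, and levels in CPM are scaled to these totals, so 1 read was worth 282 and 225 CPM. Intervals of shares are 95% Clopper-Pearson intervals. They account for counting error alone, since the reads carried no molecular identifiers and need not be separate molecules. The median circle had 3 reads over both libraries (quartiles 2 and 6), so most single circles were thinly measured. Of the marker genes looked up, 1 of 5 goblet cell genes (Zg16) and 1 of 4 proliferation genes (the mitotic checkpoint gene Bub1b) were among these hosts. The other goblet cell and proliferation genes had no exonic circle. None of 8 stem cell, 4 Paneth cell, 4 enteroendocrine, 3 tuft, 12 absorptive enterocyte, 6 immune or 6 stromal markers was among them. A sole exonic circle was listed for 6 of the enterocyte and 3 of the immune markers. Both Zg16 rows had 1 end at a splice site, with 3 and 2 reads in replicate 1 and 0 in replicate 2. A table of circles does not show whether those genes were expressed. In such bulk libraries, fewer cells of a type and less RNA per cell cannot be told apart.

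How circles of 1 host differ is visible at the join itself. The sequences run 5′ to 3′ across the back-splice junction, with the last 25 bases of the final exon in lower case and the first 25 bases of the first exon in capitals. They were taken from GENCODE M21 transcripts, and positions are mm10. For Rasa2, the gene of a GTPase-activating protein of RAS on the minus strand of chromosome 9, both circles join the same acceptor of exon 2 to the donor of exon 4 or of exon 5, so the capitals are shared.
Rasa2 exons 2 to 4, chr9:96602713-96611499: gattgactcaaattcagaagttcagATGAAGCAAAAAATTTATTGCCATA
Rasa2 exons 2 to 5, chr9:96591950-96611499: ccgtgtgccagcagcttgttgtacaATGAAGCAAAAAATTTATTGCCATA
In Mettl9, a protein histidine methyltransferase gene on the plus strand of chromosome 7, the donor of exon 4 is shared and the acceptors differ, so the lower-case bases are the same.
Mettl9 exons 2 to 4, chr7:121047838-121057399: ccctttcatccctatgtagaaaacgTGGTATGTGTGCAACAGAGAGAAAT
Mettl9 exons 3 to 4, chr7:121052087-121057399: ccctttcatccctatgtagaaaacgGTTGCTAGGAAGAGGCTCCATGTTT
Cdk8, the gene of the Mediator kinase, shows a staggered pair on the plus strand of chromosome 5, in which neither side is shared.
Cdk8 exons 3 to 6, chr5:146268215-146286239: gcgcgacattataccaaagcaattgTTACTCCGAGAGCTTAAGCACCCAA
Cdk8 exons 2 to 4, chr5:146259505-146271735: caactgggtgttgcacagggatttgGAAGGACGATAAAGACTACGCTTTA

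Most hosts had few circles. Exactly 2 circles were listed for 127 hosts, 3 for 27, 4 for 11 and 5 for 8. Hosts with 5 circles included Zfp827, Slc12a8, Rere, Arhgap26, B4galnt2, Fut8 and Pls1. Host totals ran from 3 to 267 reads with a median of 10, and the 10 hosts with most reads held 33.5% of the reads of the set. Read from 1 library alone, the rule found 217 circles in 90 hosts (without replicate 2) or 237 circles in 104 hosts (without replicate 1), so much of the set came from joining the libraries. With circles that had reads in both libraries, 81 circles in 38 hosts remained.

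Alternative use of 1 end was the most frequent arrangement among overlapping circles. The hosts gave 354 pairs of circles, of which 171 (48.3%) shared exactly 1 end. Read along the strand of the host, 96 pairs (27.1%) shared the 5′ end and 75 (21.2%) the 3′ end. A further 12 pairs (3.39%) were nested with no shared end, 23 (6.50%) overlapped in a staggered way, and 148 (41.8%) were separate. At least 1 shared end was found in 109 hosts (63.0%), and 263 circles (62.8%) took part. These circles held 70.6% of the reads of the set in replicate 1 (68.2 to 73.0%) and 68.6% in replicate 2 (66.4 to 70.8%).

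**Figure D1:**
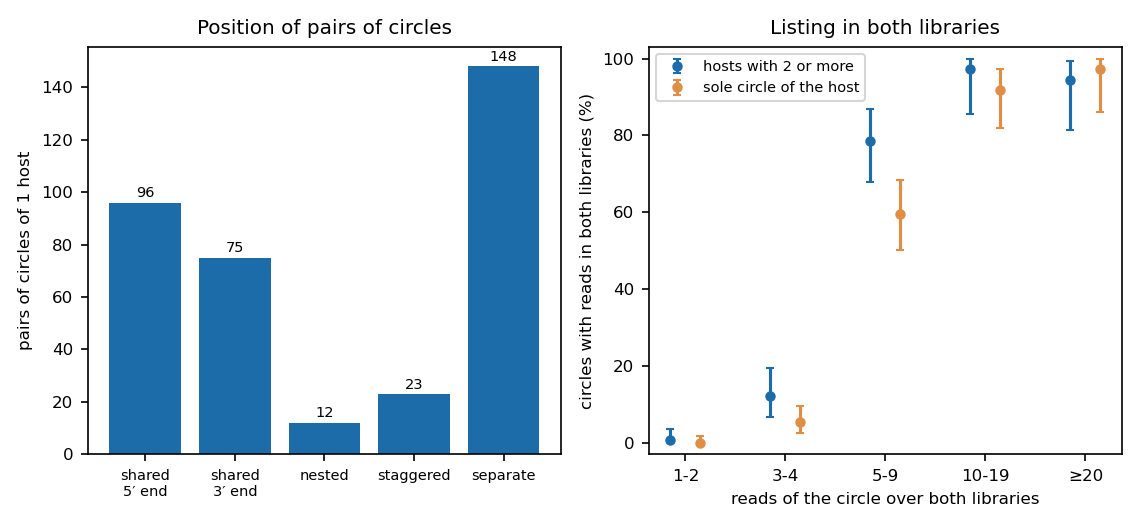
Left, number of pairs of circles of 1 host by position, with ends read along the host's strand; 96 pairs shared the 5′ end, 75 shared the 3′ end and 148 were separate. Right, percent of circles with reads in both libraries by reads of the circle, for hosts with 2 or more exonic circles (blue) and for circles alone in their host (orange), with 95% Clopper-Pearson intervals; from 10 reads upward both sets are above 90%.

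Among the 127 hosts with 2 circles, 44 had separate circles, 39 a shared 5′ end, 29 a shared 3′ end, 13 a staggered pair and 2 a nested pair. Some ends served more than 2 circles: 10 positions of the 5′ end and 6 of the 3′ end were each used by 3 or more. Exon 2 of Cds1 and exon 8 of Pls1, the gene of the brush-border actin bundler plastin 1, were the acceptors with most circles, 4 each. The 3′ ends used by 3 circles were found in hosts such as Slc12a8, a solute carrier gene, and Fut8, the core fucosyltransferase gene.

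**Figure D2:**
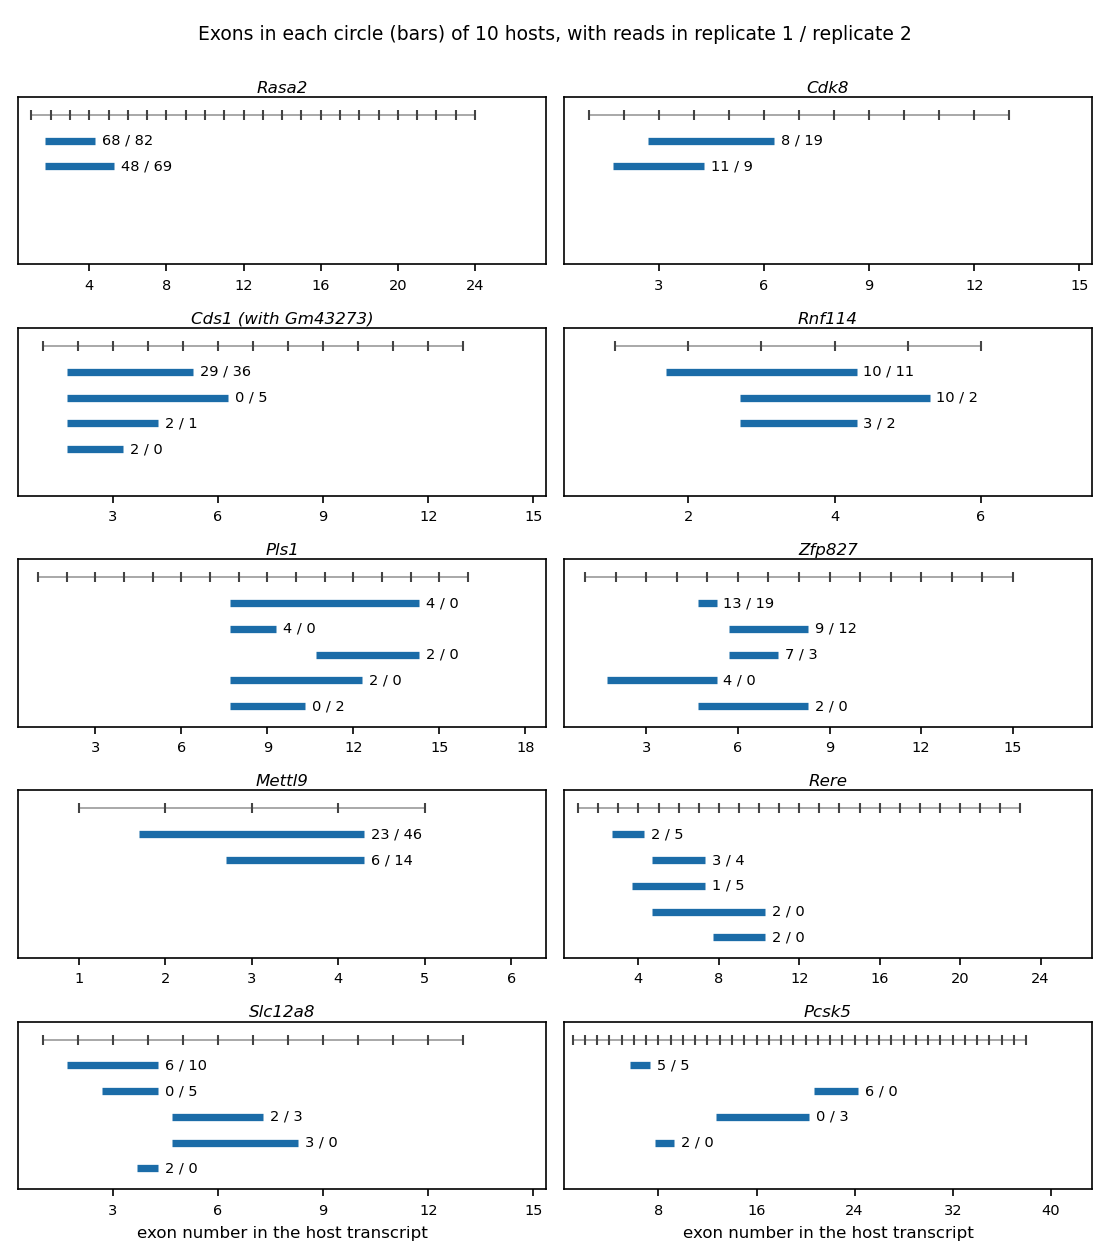
Exons contained in each circle (blue bars) along the exon number of the matched host transcript (tick marks) for 10 hosts; the pair of numbers is the back-splice reads in replicate 1 / replicate 2, and only circles at splice sites of 1 transcript are drawn. Rasa2, Cds1 and 4 of the 5 circles of Pls1 share a left edge, Mettl9 shares a right edge, and the circles of Pcsk5 do not overlap.

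The 2 members of a pair with a shared end were usually close neighbours in exon structure. Of 140 such pairs on 1 transcript, 75 (53.6%) differed by 1 exon, 41 by 2 and 24 by 3 or more. The proportion differing by 1 exon was 42 of 82 with a shared 5′ end and 33 of 58 with a shared 3′ end. Esyt2, which encodes a tether between the endoplasmic reticulum and the plasma membrane, is an example, with circles of exons 2 to 6 and 2 to 7. Atp9a, a phospholipid flippase gene, had the wide form, exons 2 to 4 and 2 to 14.

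Exon 2 was a common shared acceptor. Among 66 acceptors at splice sites that were used by several circles, 32 (48.5%, 36.0 to 61.1%) were those of exon 2. Among 251 acceptors used by 1 circle of these hosts, 53 (21.1%, 16.2 to 26.7%) were. The difference was not tested, since acceptors of 1 host are not independent. The second value is also held down by construction, because a host with several acceptors can have only 1 of them at exon 2 of a transcript. Among circles alone in their host, 244 of 615 (39.7%, 35.8 to 43.7%) started at exon 2, an interval that overlaps that of the shared acceptors. A preference of shared acceptors for exon 2 is therefore not shown. Rasa2, Cds1, Lrch3, Esyt2, Usp3, Tlk1 and Atp9a belonged to the exon 2 group, whereas Esco1, a cohesin acetyltransferase gene, used exon 5 and Gigyf2, a translational repressor gene, used exon 4.

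Neither the shorter nor the longer circle of a pair led throughout. In the 148 pairs with a shared end and unequal reads, the shorter circle had more reads in 77 (52.0%) and the longer in the others. The figure was 62 of 125 in replicate 1 (49.6%) and 73 of 137 in replicate 2 (53.3%). Over both libraries it was 44 of 87 for a shared 5′ end and 33 of 61 for a shared 3′ end. The 3′ value differed in direction between libraries, with 23 of 52 (44.2%) in replicate 1 and 35 of 61 (57.4%) in replicate 2. Among pairs with at least 20 reads, the shorter circle led in 19 of 39 (48.7%), and in 5 of 13 of those with a shared 3′ end. In Usp3, a deubiquitinase gene, the short form led (exons 2 to 3, 12 and 16 reads, against exons 2 to 8, 0 and 7 reads). Lrch3, which encodes a leucine-rich repeat protein, had the reverse, with 18 and 23 reads for exons 2 to 6 and 2 and 3 reads for exons 2 to 4. The circle with more reads had the longer downstream intron in 43 of 74 pairs with a shared 5′ end, and the longer upstream intron in 22 of 47 pairs with a shared 3′ end.

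**Figure D3:**
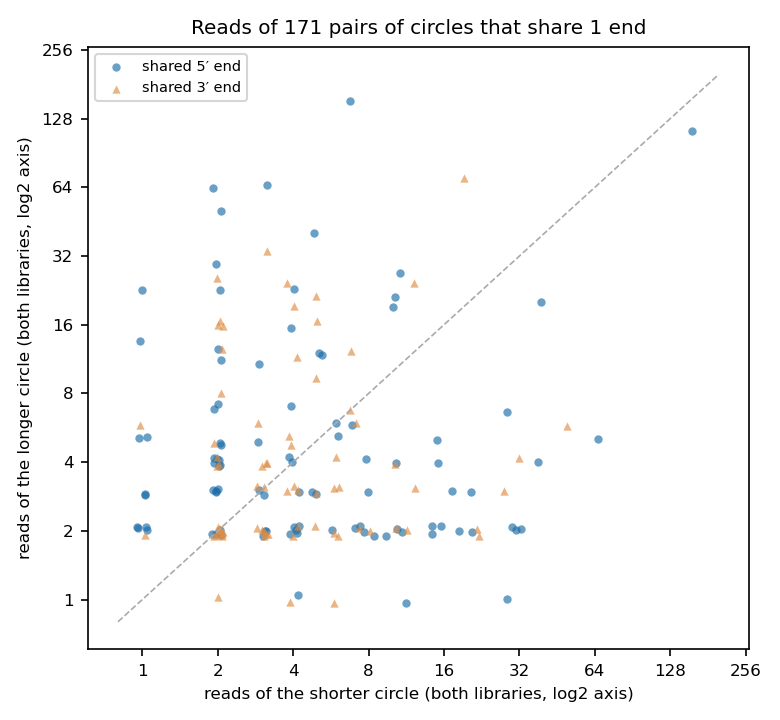
Back-splice reads over both libraries of the shorter (x) and longer (y) circle in the 171 pairs that share 1 end, on log2 axes, with points shifted slightly so that ties can be seen; blue circles share the 5′ end, orange triangles the 3′ end, and the dashed line marks equal reads. Points lie on both sides of the line, with the shorter circle ahead in 77 of the 148 pairs with unequal reads.

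The hosts with most reads differed in how evenly these were divided. Rasa2 had 116 and 151 reads in replicates 1 and 2. Its circle of exons 2 to 4 had 68 and 82 reads and that of exons 2 to 5 had 48 and 69, so the first took 58.6% and 54.3% of the host (56.5 ± 3.05%, SD, n = 2). Both forms were thus present in quantity in each library. Ogdh, which encodes a mitochondrial dehydrogenase of the citric acid cycle, was near the other extreme. Its main circle had 69 and 87 reads and its minor circle 3 and 4, a main share of 95.7 ± 0.162%. Both Ogdh circles start at exon 3 on chromosome 11, and the minor one ends in an alternative exon 4, which changes the lower-case side of the junction.
Ogdh main circle, chr11:6313788-6317080, plus strand: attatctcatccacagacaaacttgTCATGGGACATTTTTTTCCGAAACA
Ogdh minor circle, chr11:6313788-6316855, plus strand: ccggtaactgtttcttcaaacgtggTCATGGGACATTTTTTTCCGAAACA
Btnl1, a butyrophilin-like gene of intestinal epithelium, had 65 and 77 reads, of which 58 and 74 were on the circle of exons 4 to 8. The other 3 Btnl1 rows had 1 end at a splice site and 0 to 3 reads per library, and reads shared with similar butyrophilin-like genes could not be separated.

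Cds1, which encodes a CDP-diacylglycerol synthase of phospholipid synthesis, was entered under a pair of name strings because a gene model, Gm43273, overlaps its exon 2 circles. The string with Gm43273 held 4 circles that all started at exon 2. The circle of exons 2 to 5 had 29 and 36 reads, that of exons 2 to 6 had 0 and 5, that of exons 2 to 4 had 2 and 1, and that of exons 2 to 3 had 2 and 0. The plain Cds1 string added the circle of exons 3 to 5 with 28 and 20 reads, which ends at the same donor as the leading circle. In replicate 1 the exon 2 to 5 and exon 3 to 5 circles were therefore nearly equal, and in replicate 2 the first was higher. Their junctions share the donor side, and the 2 next junctions share the acceptor side of exon 2.
Cds1 exons 2 to 5, chr5:101781375-101798516, plus strand: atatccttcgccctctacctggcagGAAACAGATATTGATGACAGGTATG
Cds1 exons 3 to 5, chr5:101791475-101798516, plus strand: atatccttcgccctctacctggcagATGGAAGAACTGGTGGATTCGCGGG
Cds1 exons 2 to 6, chr5:101781375-101806621, plus strand: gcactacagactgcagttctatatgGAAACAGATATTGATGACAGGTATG
Cds1 exons 2 to 4, chr5:101781375-101797101, plus strand: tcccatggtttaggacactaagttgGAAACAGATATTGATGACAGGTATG

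Other hosts among the 20 with most reads ranged from 2 to 5 circles. Mettl9 had 23 and 46 reads for exons 2 to 4 and 6 and 14 for exons 3 to 4, a leading share of 78.0 ± 1.87%. Ptbp3, whose product binds pyrimidine-rich RNA and regulates splicing, had 21 and 28 reads for exons 3 to 5, 4 and 7 for the separate circle of exons 7 to 8, and 0 and 6 for exons 2 to 5. Zfp827, a zinc finger protein gene, split its reads over 5 circles, led by exon 5 alone with 13 and 19 reads and exons 6 to 8 with 9 and 12. The circle of exons 5 to 8, which would join these 2 regions, had 2 and 0 reads. Esco1 had 21 and 19 reads for exons 5 to 7 and 8 and 13 for exons 5 to 9, a leading share of 65.9 ± 9.22%. Both of its circles thus had reads in each library, as for Rasa2 and Mettl9, but the minor circles of Esco1 and Mettl9 had only 6 to 14 reads per library. Tlk1, a Tousled-like kinase gene, had 14 and 13 reads for its main circle and 4 and 7 for the next.

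Some circles of 1 host differed by a few bases at 1 end. In 9 pairs both ends lay within 100 bases of each other. Ppp4r1, a phosphatase regulatory subunit gene, had 2 annotated acceptors 51 bases apart before the same donor, with 2 and 2 reads at one and 2 and 1 at the other. The plain Cds1 string had a circle that ended 29 bases inside exon 5, not at an annotated splice site, with 2 and 0 reads. Further pairs came from the ribosomal RNA feature CT010467.1 and from Nrip1, Mbtd1, Cnot2 and Ezh2, which were chosen after their values were seen. Nrip1, a nuclear receptor corepressor gene, had 10 and 2 reads at one acceptor and 4 and 3 at the acceptor 3 bases away.

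In other hosts the circles came from different parts of the transcript. All circles were separate in 47 hosts, and in 44 of 132 separate pairs on 1 transcript the circles lay in directly adjacent exons. The median distance between separate circles was 25901 bases. Mgat4a, an N-acetylglucosaminyltransferase gene, had 11 and 23 reads for exons 2 to 4 and 4 and 3 for exons 6 to 8. Txndc11, a thioredoxin-domain protein gene, had 15 and 10 reads for exons 2 to 4 and 3 and 2 for exons 9 to 11, a leading share of 83.3% in each library. Tns3, a tensin gene of focal adhesions, had 2 similar circles, with 6 and 5 reads for exons 18 to 20 and 4 and 4 for exons 14 to 16. Pcsk5, a proprotein convertase gene, had 4 separate circles along 38 exons, of which exons 6 to 7 had 5 and 5 reads and the other 3 were each in 1 library. Tbc1d14, a RAB GTPase-activating protein gene, had 10 and 6 reads for exon 3 alone and 3 and 0 for exons 5 to 8.

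Over the 173 hosts, the median share of pooled reads on the leading circle was 66.7% (quartiles 54.5 and 77.8%). Among the 88 hosts with at least 10 reads, the median was 71.4%, 9 hosts had 90% or more on 1 circle, and 12 had under 50%. The 9 included the ribosomal RNA feature CT010467.1 (97.1%) and the plain Cds1 string (96%), which holds only part of the circles of Cds1. They also included Btnl1 (93.0%), whose minor rows were not at splice sites at both ends. A high share can thus reflect the name rule or such rows. Second circles were scarce: 86 of 173 had 1 or 2 reads and 10 had at least 10. Taken in each library by itself, the leading share had a median of 77.4% in replicate 1 and 75% in replicate 2. Here the leading circle was picked in that library and can differ between the libraries. These values are raised by hosts with few reads.

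**Figure D4:**
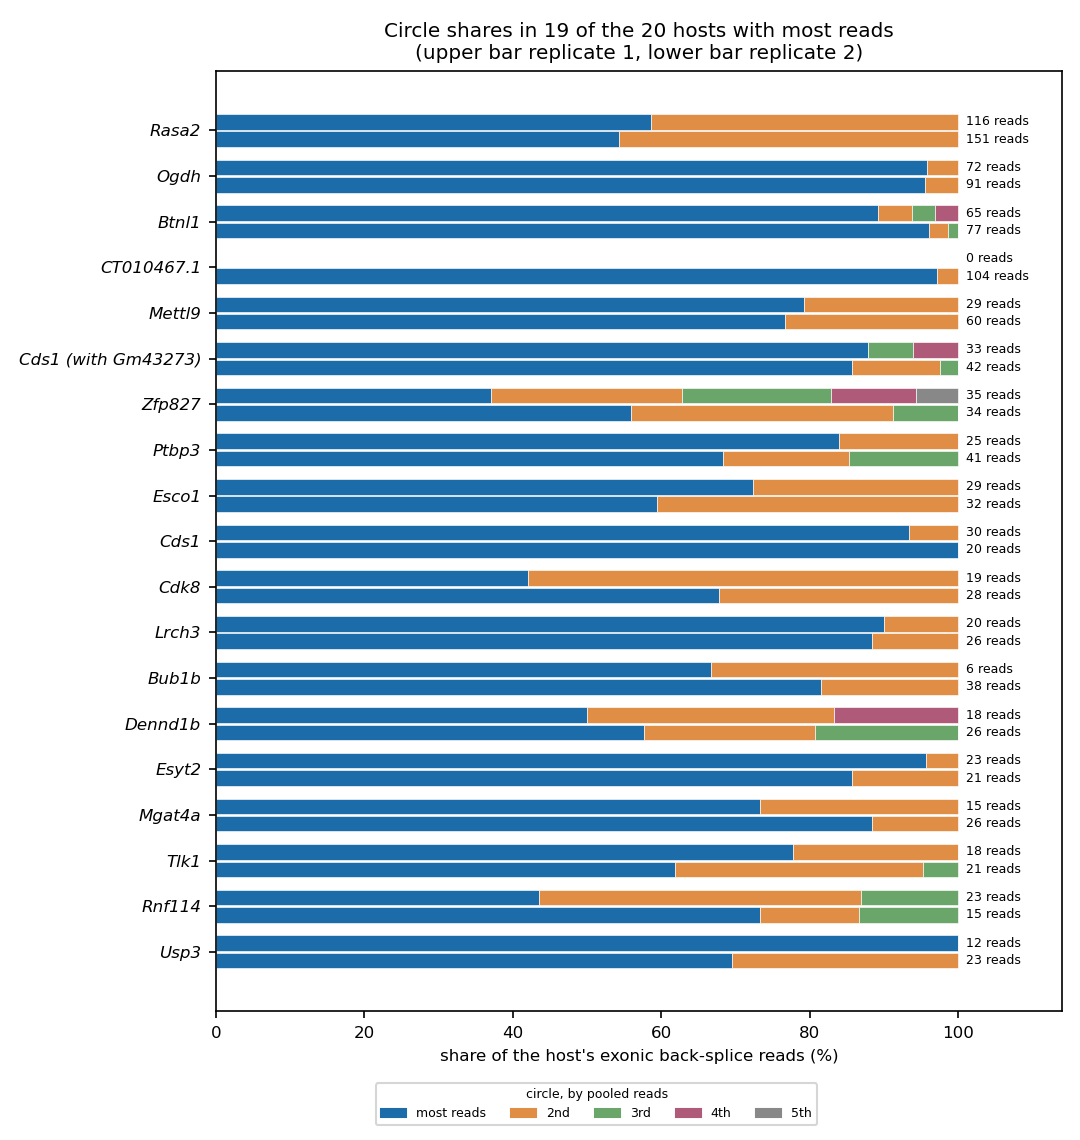
Share of each host's exonic back-splice reads held by each of its circles in hosts among the 20 with most reads, with replicate 1 above replicate 2 and the host's reads at the right; colours rank circles by reads pooled over the libraries. The leading circle (blue) of Ogdh is above 95% in both libraries, that of Rasa2 is at 58.6 and 54.3%, and CT010467.1 has no reads in replicate 1.

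The libraries were then compared for how a host's reads were divided. Of 31 hosts with at least 10 reads in each library, 27 had the same leading circle in both, 3 had a tie in one, and 1 had different leaders. The exception was Cdk8, where exons 2 to 4 led in replicate 1 (11 against 8 reads) and exons 3 to 6 in replicate 2 (19 against 9). Its split gave an adjusted p of 0.345 (Fisher's exact test, two-sided, Benjamini-Hochberg over 132 hosts with reads in each library). The share of the leading circle differed between libraries by a median of 13.3 percentage points in these 31 hosts, and by up to 47.2 points in Rps6kc1, a kinase-like gene. Rps6kc1 had 6 and 14 reads for exons 3 to 5 and 4 and 0 for exons 4 to 5 (adjusted p = 0.287, Fisher's exact test).

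No host passed this test (0 of 132, 0%), and 18 (13.6%) had an unadjusted p under 0.05. Hosts with few reads could not pass whatever their division. With 3 reads in each library on different circles, the unadjusted p was 0.1 (Fisher's exact test). Of the 132 hosts, 85 had at least 10 reads, so the lack of calls does not show an equal division in both libraries. The test sets these 2 libraries against counting error and compares no conditions. It takes a listed 0 as no reads, although a listed 0 may hide a read. With only circles that had reads in both libraries, 0 of 38 hosts had an unadjusted p under 0.05, but that choice removes circles seen in 1 library. The smallest adjusted p was 0.0879, for B4galnt2, a glycosyltransferase gene, whose 5 circles were each in 1 library, with 10 reads over 3 circles in replicate 1 and 5 reads over the other 2 in replicate 2. Fut8 had a similar pattern, with 3 reads on exons 9 to 10 in replicate 1 and 11 reads on 4 other circles in replicate 2 (adjusted p = 0.287, Fisher's exact test). Rasa2, with the most reads, had an adjusted p of 0.659 and intervals of 49.1 to 67.7% and 46.0 to 62.4% for its leading share.

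**Figure D5:**
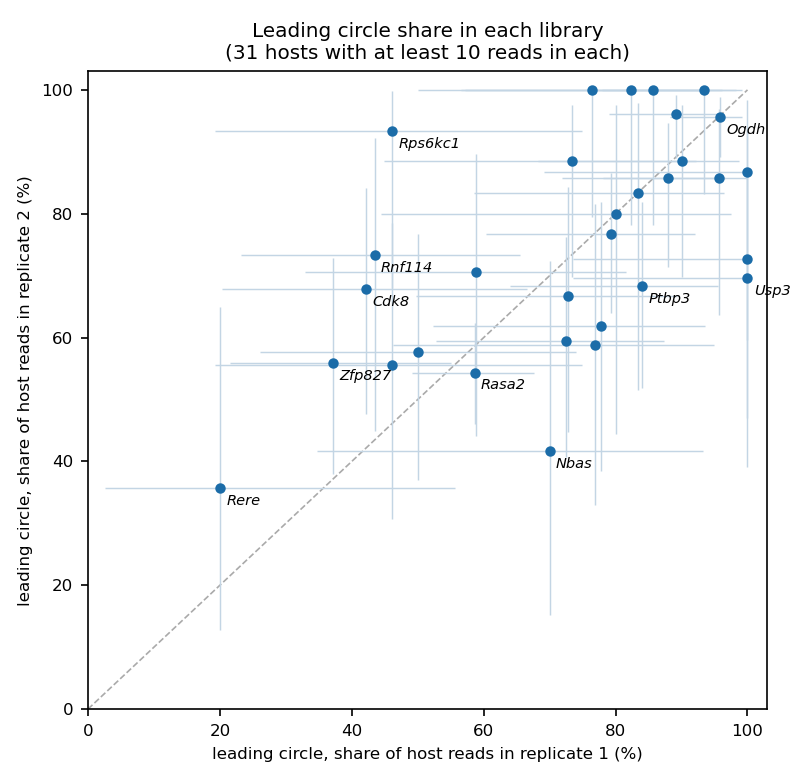
Share of host reads on the circle with most pooled reads in replicate 1 (x) and replicate 2 (y) for the 31 hosts with at least 10 reads in each library; bars are 95% Clopper-Pearson intervals and the dashed line marks equality. Ogdh and Rasa2 lie close to the line, and Rps6kc1, which differs by 47.2 points, is farthest from it.

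Reads of single circles differed between the libraries in 5 of 419 members (1.19%), against 18 of all 1132 circRNAs (1.59%; exact binomial test against library totals, two-sided, Benjamini-Hochberg adjusted over all circRNAs). Calls with more reads in replicate 1 made up 1.15% of the whole table and included 2 members. Those with more in replicate 2 made up 0.442% and included 3 members. At an unadjusted p under 0.05 there were 35 members (8.35%) against 9.36% of all circRNAs. The share among members was near the background. Gigyf2 had 0 and 22 reads on exons 4 to 8 (adjusted p = 0.000671), and its other 2 circles, which use the same acceptor, had 0 and 4 and 0 and 1 reads. All 3 were thus listed in replicate 2 alone. Bub1b, the gene of a spindle checkpoint kinase, had 4 and 31 reads on exons 17 to 19 (adjusted p = 0.00664) and 2 and 7 on the staggered circle of exons 16 to 17. Atp9a had 16 and 2 reads on exons 2 to 4 (adjusted p = 0.0136) and 3 and 0 on exons 2 to 14. In Vwa8, which encodes a mitochondrial AAA protein, the called circle of exons 13 to 14 had 14 and 0 reads (adjusted p = 0.00187), the circle of exons 17 to 20 had 4 and 2, and that of exons 15 to 20 had 3 and 0. CT010467.1, a ribosomal RNA feature with no end at a splice site, had 0 and 101 reads on one row (adjusted p = 1.72e-23) and 0 and 3 on an overlapping one.
Gigyf2 exons 4 to 8, chr1:87364104-87380008, plus strand: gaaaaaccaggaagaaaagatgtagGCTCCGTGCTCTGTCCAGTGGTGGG
Gigyf2 exons 4 to 5, chr1:87364104-87365279, plus strand: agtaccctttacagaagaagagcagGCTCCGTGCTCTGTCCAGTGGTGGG
Gigyf2 exons 4 to 6, chr1:87364104-87374111, plus strand: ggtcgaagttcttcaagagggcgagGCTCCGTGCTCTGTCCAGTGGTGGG

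Listing in both libraries followed read number, in part by construction. A circle with 1 read cannot be in both, and only 1 of 373 circRNAs totalling 2 reads was. In the lowest bands, and between leading and remaining circles, differences cannot be told apart from how low counts are listed. Of the 419 circles, 146 (34.8%, 30.3 to 39.6%) had reads in both, 131 in replicate 1 alone and 142 in replicate 2 alone. Leading circles were in both in 102 of 173 hosts (59.0%), and the remaining circles in 44 of 246 (17.9%), at medians of 6 and 2 reads. All circles of a host were in both libraries for 20 hosts, among them Rasa2, Ogdh, Mettl9, Esco1, Lrch3 and Rnf114. Conversely, 41 hosts had all their circles in 1 library, and 29 hosts had reads in each library but no circle in both. Circles that were alone in their host were in both in 27.6% (175 of 635). With 1 or 2 reads, 1 of 152 circles of multi-circle hosts and 0 of 226 sole circles were in both. With 3 or 4 reads the values were 12.1% and 5.29%. With 5 to 9 reads the values were 78.5% (67.8 to 86.9%) for circles of multi-circle hosts and 59.5% (50.2 to 68.3%) for sole circles, and with 10 to 19 reads 97.2% and 91.8%. With 20 or more reads the order was the other way, 94.4% and 97.4%. The sets were not tested against each other.

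Structure of the set was set beside that of sole circles as a description. Both ends lay at splice sites of 1 annotated transcript in 392 of 419 members (93.6%) and 615 of 635 sole circles (96.9%). Members had a median spliced length of 402 bases against 349, a median genomic span of 6534 bases against 3779, and a median of 3 exons in both. The introns before and after had medians of 12375 and 9751 bases for members and 9760 and 7559 for sole circles. Exon 2 was the first exon in 30.9% of members (26.3 to 35.7%) and 39.7% of sole circles (35.8 to 43.7%). The annotated start codon lay inside 11.9% of members and 17.7% of sole circles, and single-exon circles made up 3.83 and 8.13%. Leading and other circles of multi-circle hosts had the same median spliced length, 402 bases.

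Of the 27 members not at splice sites of 1 transcript, 15 had a splice site at 1 end and 7 at neither end, while in 5 the sites belonged to different transcripts. They included 3 of 4 rows of Btnl1, both of CT010467.1 and all 4 of Rbm4, an RNA-binding protein gene, whose leading row had 6 and 4 reads. The hosts with 4 or 5 circles that follow in this paragraph had 14 to 44 reads. Slc12a8 had 6 and 10 reads on exons 2 to 4, and 4 other circles of 0 to 5 reads. Pik3c2a, a class II phosphoinositide 3-kinase gene, had 10 and 12 reads on exons 5 to 8, 5 and 3 on exons 20 to 21, and a pair of circles in 1 library each. The leading circle was thus the same in both libraries for Slc12a8 and Pik3c2a. Dennd1b, the gene of a RAB exchange factor, had 9 and 15 reads on exons 4 to 9 and 6 and 6 on exons 6 to 9. Nbas, a gene of Golgi-to-endoplasmic reticulum transport, had 7 and 5 reads on exons 43 to 44 and 3 more circles of 0 to 5 reads, so replicate 2 had a tie for the lead. Phkb, a phosphorylase kinase subunit gene, had 3 and 4 reads on exons 3 to 5 and 3 and 3 on exons 3 to 7. These circles of Phkb were nearly equal in each library. Rere, a transcriptional corepressor gene, spread 24 reads over 5 circles, none above 5 reads in a library. Its circles of exons 3 to 4 (2 and 5 reads) and 5 to 7 (3 and 4 reads) tied for the lead at 29.2% of the pooled reads each. Tc2n had 2 and 6 reads on exons 4 to 7 and 3 and 1 on exons 4 to 8. Arhgap26, a GTPase-activating protein gene, had 4 and 4 reads on exons 7 to 11, and its other 4 circles were each in 1 library, as were all 5 of Pls1.

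Grouped by role, 5 of 13 listed genes of membrane lipids and glycans were multi-circle hosts (Cds1, Esyt2, Atp9a, B4galnt2 and Fut8), and 2 more had a sole exonic circle. For GTPase, kinase and phosphatase signalling the counts were 6 of 21 and 7 more, with Rasa2, Arhgap26, Pik3c2a and Map2k1 among the 6. RNA binding and translation had 3 of 9 (Ptbp3, Mbnl2 and Gigyf2) and 3 more, and chromatin and transcription 3 of 13 (Ep300, Ehmt1 and Rere) and 7 more. None of the 7 ubiquitin ligase genes on the list was a multi-circle host and 4 had a sole circle, but the list is short and other ligase genes were multi-circle hosts, among them Arih1, Arih2, Huwe1 and Rnf114. These counts are of all genes listed, many of which had no exonic circle. Among gene name entries with any exonic circle, 173 of 808 (21.4%) were multi-circle hosts, a share with another denominator. The lists were drawn up with results of these data known and are not evidence of a preference. Arih1, Arih2 and Huwe1 were named after their values were seen, with 12, 7 and 5 reads in all. Rnf114 had 10 and 11 reads on exons 2 to 4, 10 and 2 on exons 3 to 5 and 3 and 2 on exons 3 to 4, and it carried both a shared acceptor and a shared donor.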

How the data were processed

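The libraries were prepared from total RNA with reagents of MGI, per the labels' protocols. The aligner, circRNA caller, filters and strand handling were not given in the sources used here. Per the submitters' processing notes, positions are on mm10. The deposited counts are raw back-splice reads of each circRNA, per the file headers. The deposited CPM column is a signal, the count times a constant of its library (272 and 233 per read), and was not used for levels. A listed 0 may hide a read: only 1 of 373 circRNAs totalling 2 reads was listed in both libraries.

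Columns were matched to samples by title, and 0 sample columns were unused. Ends were taken from the identifiers and matched to GENCODE M21. A circle was placed at splice sites of 1 transcript when, in that transcript, its left end began any exon but the leftmost and its right end closed any exon but the rightmost. Exon numbers are those of the matched transcript, and coding transcripts that matched most circles of the host were preferred. With 1 group of 2 libraries there was no group contrast. An exact binomial test was run on all 1132 circRNAs, and Fisher's exact test (Freeman-Halton form above 2 circles) on each of 132 hosts, each with Benjamini-Hochberg adjustment and a threshold of 0.05 (scipy 1.17.1, R 4.3.3). TMM factors came from edgeR 4.0.16. The tests were checked on simulated data. Reads shared with near-identical genes or antisense partners could not be separated.

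Members and gene lists were chosen with earlier results of these data known. Hosts named are the 20 with most reads, those with 4 or more circles, those with a called circle or split, up to 5 with at least 10 reads in each library and different leading circles, and the 5 with most reads and only separate circles. Genes of the fixed lists are named with them, and some hosts that the rule selects are not reported here. Alternatives covered splice-site matching, read minimums, scaling, host definition, tolerance on ends and single libraries.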

Additional observations from a re-analysis of the deposited data

Results flagged for a closer look

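An intron-type row of Ogdh, outside the exonic set, had 0 reads in replicate 1 and 5 in replicate 2, above the 3 counts that a count of 0 allows. Its reads did not differ between the libraries past the threshold (p = 0.0704, adjusted p = 0.433, exact binomial test). It lay at chromosome 11, 6311009 to 6316855, and ended at the same base as the minor exonic circle of Ogdh (3 and 4 reads).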

How the results depend on the processing

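The number of members fell from 419 to 81 with circles in both libraries, to 78 with a minimum of 5 reads per circle, and to between 217 and 237 when 1 library was left out, since fewer circles could then share a host. Among circles at splice sites of 1 transcript it was 384, in 161 hosts. Among these same circles with hosts taken by annotated gene, it was 412, in 171 hosts. That alternative was chosen after seeing the data. The share of pairs with exactly 1 shared end lay between 47.2 and 59.1% when 1 library was left out, and between 47.7 and 50% under the other alternatives. The median leading share was 71.4% for hosts with at least 10 reads. It was 75 to 77.4% when 1 library was left out, with the leading circle picked anew in the library kept. Listing in both libraries rose from 34.8% to 86.8% with a minimum of 5 reads, which removes the circles too thin to be seen in both. The test of isoform division called 0 hosts under each of its 3 alternatives, with smallest adjusted p from 0.0566 to 1 and 10, 12 and 0 hosts at an unadjusted p under 0.05. The count of circRNAs whose reads differed between libraries was 10 with a listed 0 taken as 1 read, chosen after seeing the data, against 18, and 12 to 19 otherwise. Members called numbered 5 in each alternative, except 4 where CT010467.1 was not tested because it has no end at a splice site. For a single host, the circle with most pooled reads was followed. With 1 library left out, its share is that in the other library by construction. This was listed only for hosts selected by the naming rule. Among them, the share moved by over 1.5 times in Rps6kc1 (71.4% pooled, 46.2% without replicate 2) and Tc2n (53.3 and 33.3%). It moved to 0 without replicate 1 in B4galnt2, Pls1 and Vwa8 and without replicate 2 in Fut8. Over the whole set, 29 hosts had reads in each library but no circle in both. In these, the share of the circle with most pooled reads is 0 in 1 library. The share of pairs led by the shorter circle was 49.6 and 53.3% with 1 library left out, and 53.2 and 52.7% under the other alternatives. No paired analysis was possible because the series has 1 group. The median circle had 3 reads, so its share of a host carries a large counting error.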
